A study of Mus musculus with 4 samples.

Results

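The transcripts described here are those of 10 inhibitory receptors of myeloid cells, Sirpa, Cd72, Cd33, Vsir, Lilrb4a, Pirb, Fcgr2b, Cd200r1, Lair1 and Milr1, taken by name from the 21523 genes of a deposited expression table, in which all 10 have a row. They were chosen with the difference between the groups in view, so their differences are given as a description. No p-value of any of the 10 is printed, and counts of them past a threshold belong to that description and are not a test of the group. The cells were RAW264.7, a mouse macrophage-like line that came from a virus-induced tumour. Messenger RNA was sequenced from 2 libraries of cultures given 0.5 mM 1,5-anhydroglucitol (1,5-AG, a polyol that is glucose without the hydroxyl group on its first carbon) for 24 h and from 2 libraries of control cultures with no treatment. All cultures grew in the same kind of serum-containing medium. The time in culture of the controls is not given in the labels, and nothing there says that libraries of a group came from separate cultures, so the spread between them may be technical. A cell line is 1 lineage of cells, and its receptors may differ from those of tissue macrophages.

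Inhibitory receptors set the threshold at which a macrophage engulfs, degranulates or releases cytokines. Most carry short tyrosine motifs in the cytoplasmic tail, called immunoreceptor tyrosine-based inhibitory motifs (ITIMs). Kinases of the Src family phosphorylate the tyrosine, and the phosphatases encoded by Ptpn6, Ptpn11 and Inpp5d then bind it and oppose activating signals. Receptors without an ITIM act through other tails, as CD200R1 does through adaptors of the DOK family. Cd72 is grouped with them by function, but its product is a C-type lectin-like protein and not an immunoglobulin-type one.

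The tails of the receptors differ in the number of such motifs. In the longest complete coding sequence of each gene in GENCODE release M21, a stretch of 6 codons was counted as an ITIM when it read isoleucine, valine, leucine or serine, any residue, tyrosine, any pair of residues, then isoleucine, valine or leucine, on the cytoplasmic side of the most hydrophobic run of 19 codons. By this pattern Sirpa and Pirb had 3 motifs each, Cd72, Lilrb4a and Lair1 had 2 each and Fcgr2b had 1. The other 4, Cd33, Vsir, Cd200r1 and Milr1, had 0, which says only that this pattern is not in those tails. The coding stretches of Sirpa and Cd72, the most abundant of the receptors, and of Fcgr2b are shown 5′ to 3′ because they match this pattern, with the tyrosine codon in capitals. A match to the pattern is not a shown site of phosphatase binding.
Sirpa codon 440: atcacaTACgcagacctg
Sirpa codon 481: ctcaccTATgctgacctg
Sirpa codon 505: tcagagTATgctagtgtc
Cd72 codon 7: atcacgTATgcagacctg
Cd72 codon 39: ctcaccTACgagaatgtg
Fcgr2b codon 319: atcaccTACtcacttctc
The first Sirpa stretch lies at chr2:129629954-129629971 on the plus strand, the first Cd72 stretch at chr4:43454498-43454515 on the minus strand and the Fcgr2b stretch at chr1:170961071-170961088 on the minus strand, all within coding exons of the mm10 build (GRCm38). Of the 4 receptors lower with 1,5-AG at an adjusted p under 0.05, described next, Sirpa and Cd72 had ITIMs by this pattern. Cd33 and Vsir did not. Lilrb4a, Pirb and Fcgr2b, with ITIMs, and Cd200r1, without, also had both 1,5-AG libraries below both control libraries. They did not pass or, for Pirb, were not tested.

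With 1,5-AG the transcripts of Sirpa, Cd72, Cd33 and Vsir fell by about the same proportion, 25.3% to 32.0% of the control mean. These 4 were the members past an adjusted p of 0.05 among 9 tested, all 4 lower, where 0.647% of the 11120 genes tested were called lower with 1,5-AG, 0.809% higher and 1.46% in either direction. With voom on recovered fragments Lilrb4a joined them, 5 of 9 lower and 0 higher, where 4.64% of genes were called lower, 3.64% higher and 8.28% in either direction. None of the 4 passed when any 1 of the 4 libraries was left out, without the variance trend or without a filter on low values. With 1 library left out their differences lay between -0.55 and -0.39 on the log2(FPKM + 1) scale. The tenth receptor, Pirb, had a mean under 1 FPKM and was not tested. FPKM is a fragment count scaled to the exon length of the gene and to the depth of the library. Levels set side by side between genes therefore depend on the exon length taken for each, which spans all its annotated exons. Each difference below is 1,5-AG minus control in log2(FPKM + 1), with its standard error from limma.

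**Figure D1:**
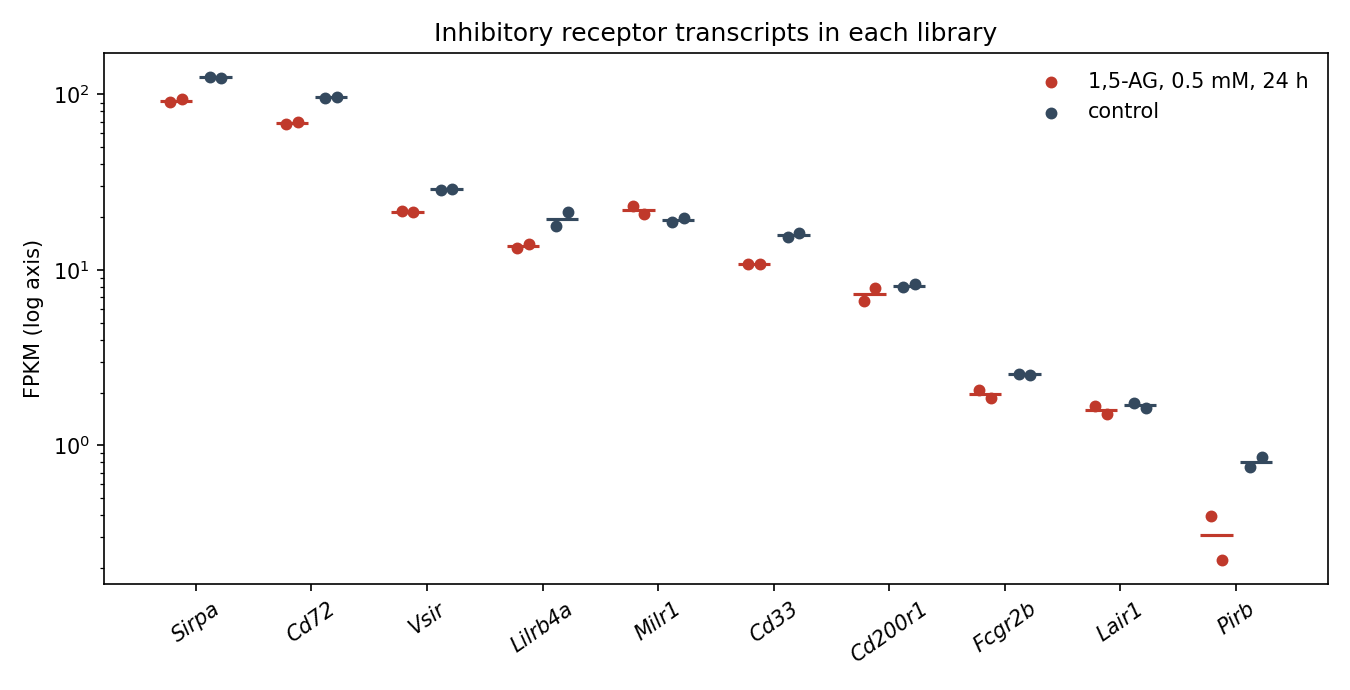
FPKM (log axis) of the 10 receptors in each library, with 1,5-AG libraries in red and control libraries in dark blue, and the mean of each group as a bar. Sirpa, at 91.0 and 93.7 FPKM with 1,5-AG and 125.5 and 124.4 FPKM in control, is the most abundant, and Milr1 is the receptor whose 1,5-AG libraries lie above the control libraries.

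Sirpa encodes the receptor for CD47, through which a macrophage is held back from engulfing a cell that displays it. It had 91.0 and 93.7 FPKM with 1,5-AG, against 125.5 and 124.4 FPKM in control. The groups did not overlap, and the gap between them of 30.7 FPKM was larger than the 2.75 FPKM between the 1,5-AG libraries. Sirpa fell by 0.43 on the log2 scale (SE 0.04). It lies on chromosome 2 (129592835 to 129632228, mm10) and ranked 424 among all genes by mean FPKM. Sirpa and Cd72 together made up 66.5% and 67.6% of the summed FPKM of the 10 receptors with 1,5-AG, and 70.2% and 69.0% in control. That sum was 238.9 and 241.9 FPKM with 1,5-AG and 314.1 and 321.5 FPKM in control.

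Cd72 is a receptor for the semaphorin CD100 and is best known from B cells. It had 67.9 and 69.7 FPKM with 1,5-AG, against 95.05 and 97.4 FPKM in control, a fall of 0.48 (SE 0.04) with both 1,5-AG libraries below both control libraries. Markers of B cells were near 0, with Cd79a, Cd79b and Pax5 summing to 0.188 and 0.197 FPKM with 1,5-AG and 0.136 and 0.213 FPKM in control, and 2 more markers of that list were not analysed here. Exons of Cd72 share 1423 bases with the kinase gene Tesk1 on the opposite strand, and no source used here states whether the counting used strand. Tesk1 itself had 6.48 and 5.28 FPKM with 1,5-AG and 7.20 and 6.80 FPKM in control, far under Cd72.

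Cd33 encodes a sialic acid-binding lectin of the Siglec family. It had 10.8 FPKM in each of the 1,5-AG libraries, against 15.4 and 16.3 FPKM in control. The values within the 1,5-AG group differed by 0.0395 FPKM and those in the control group by 0.851 FPKM, while the groups were 4.63 FPKM apart. The difference was -0.52 (SE 0.05), the largest in size among the 9 receptors tested.

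Vsir encodes VISTA, a regulator of T cell and myeloid activation related to the B7 family. It had 21.7 and 21.3 FPKM with 1,5-AG and 28.5 and 29.0 FPKM in control, and fell by 0.40 (SE 0.04). Its libraries were tight in both groups, with ranges of 0.449 FPKM with 1,5-AG and 0.515 FPKM in control. Vsir and Lilrb4a are both on chromosome 10, Vsir from 60346851 to 60372684 and Lilrb4a from 51490956 to 51496611. Cd33, Pirb and Lair1 share chromosome 7, where Pirb (3711409 to 3720391) and Lair1 (4003402 to 4063204) belong to the leukocyte receptor complex.

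Lilrb4a, also known as gp49B, restrains mast cells and macrophages. It had 13.4 and 14.1 FPKM with 1,5-AG and 17.7 and 21.3 FPKM in control. The groups did not overlap, but the control libraries lay 3.58 FPKM apart, nearly as far as the 3.62 FPKM between the groups. Its difference of -0.47 (SE 0.09) was close to that of Cd72 and did not pass the threshold. Without control replicate 1 it was -0.60, and without control replicate 2 it was -0.35. A share of 26.1% of the 50-base words in Lilrb4a transcripts also occurs in its activating neighbour Lilr4b, so fragments of the pair may be assigned to either. Exons of Lilrb4a also share 1846 bases, 35.3% of their length, with Gm49339 on the same strand, a gene listed at no more than 0.0310 FPKM in any library. No source used here states how fragments in shared exons were counted. Lilr4b had 11.0 and 10.7 FPKM with 1,5-AG and 15.4 and 18.3 FPKM in control, with a difference of -0.58 that did not pass (limma adjusted p = 0.0581). Of 4 tested related genes 0 passed the limma test, 2 had an unadjusted p under 0.05 and 2 were lower with voom. Over all genes tested, 2023 of 11120 had an unadjusted p under 0.05 with limma, and 4.64% were called lower with voom. Lilrb4a passed with voom on recovered fragments, with the replicate block and with a higher filter on low values.

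Pirb encodes a receptor for MHC class I molecules. It was listed at 0.398 and 0.222 FPKM with 1,5-AG, against 0.752 and 0.854 FPKM in control. These values rest on 26 and 15 fragments with 1,5-AG and 51 and 62 fragments in control. The groups did not overlap, at a level where single fragments count. Pirb shares 16.8% of its 50-base words with Pira2 and 15.0% with Lilra6, which had at most 2 fragments in any library. How fragments from shared sequence were assigned is not known, so these low counts set no bound on the uncertainty of Pirb. Other genes of the Pira family were not compared with it.

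Fcgr2b encodes the inhibitory receptor for IgG. It had 2.07 and 1.86 FPKM with 1,5-AG and 2.56 and 2.53 FPKM in control, with separate groups and a difference of -0.26 (SE 0.09) that did not pass. Its activating neighbour Fcgr3 had 4.30 and 3.47 FPKM with 1,5-AG and 6.69 and 7.21 FPKM in control (-0.71, limma adjusted p = 0.0523). The level of Fcgr2b relative to Fcgr3 was 0.481 and 0.537 with 1,5-AG and 0.383 and 0.352 in control. Relative to Fcgr1, the high-affinity activating receptor, Fcgr2b stood the other way, at 0.0826 and 0.0824 with 1,5-AG and 0.113 and 0.119 in control. The direction of the balance between inhibitory and activating Fc receptors thus depended on the activating gene chosen, and neither ratio was tested.

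For Cd200r1, Lair1 and Milr1 the gap between groups was under the spread within a group or absent. Cd200r1, which binds CD200, had 6.68 and 7.87 FPKM with 1,5-AG and 7.997 and 8.26 FPKM in control, and the gap of 0.131 FPKM between groups was under the 1.18 FPKM within the 1,5-AG group. Its difference was -0.15 with a 95% interval from -0.36 to 0.07, and it lay between -0.25 and -0.04 with 1 library left out, both from leaving out a 1,5-AG library. Lair1, the collagen receptor, had 1.68 and 1.51 FPKM with 1,5-AG and 1.75 and 1.63 FPKM in control, and its groups overlapped. The interval of its difference, -0.33 to 0.23, includes differences in either direction.

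Milr1 encodes Allergin-1, first known as an inhibitory receptor of mast cells. It had 23.3 and 20.9 FPKM with 1,5-AG and 18.8 and 19.9 FPKM in control, with both 1,5-AG libraries above both control libraries. Its difference of 0.18 (SE 0.07) did not pass, and was 0.11 without 1,5-AG replicate 1 and 0.25 without 1,5-AG replicate 2. Milr1 stood 1.04 FPKM apart between groups, less than the 2.37 FPKM between the 1,5-AG libraries. The mast cell marker analysed, Cpa3, had 1 fragment in 1 library and 0 in the others, and 5 more of that list were not analysed here.

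Counted over the 9 tested receptors, both 1,5-AG libraries lay below both control libraries in 7 and above them in 1, where 25.4% and 24.2% of all genes tested did so. In 6 of the 9 the gap was also larger than the spread within either group, where 10.9% of tested genes were lower by that measure. The median difference of the 9 was -0.40, beside 0.00 over all genes tested. Nothing is read from these shares, since the receptors were chosen on this contrast. With 1,5-AG the order of FPKM levels was Sirpa, Cd72, then Milr1 and Vsir, whose libraries overlapped, then Lilrb4a, Cd33, Cd200r1, Fcgr2b, Lair1 and Pirb. In control cells it was Sirpa, Cd72, Vsir, then Lilrb4a and Milr1, whose libraries overlapped, then Cd33 and the others as before.

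**Figure D2:**
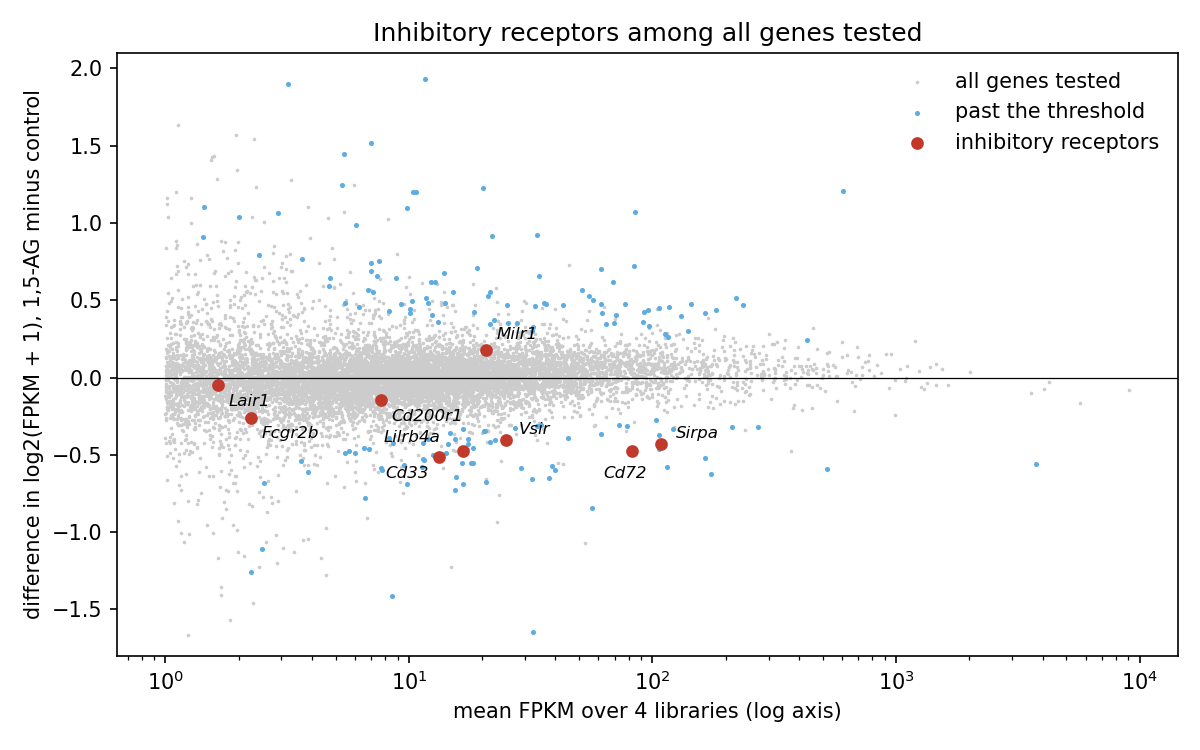
Mean FPKM over 4 libraries (log axis) against the difference in log2(FPKM + 1), 1,5-AG minus control, for the 11120 genes tested in grey, those past the threshold in light blue and the 9 tested receptors in red. Cd33, Lilrb4a, Vsir, Cd72 and Sirpa lie between -0.52 and -0.40, while Milr1 lies at 0.18.

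Of the genes that bind these receptors from outside the cell, 0 of 6 tested passed the limma test. Of the 6, 3 had an unadjusted p under 0.05, where 2023 of all 11120 genes tested did. Voom on recovered fragments called 3 of them lower, where 4.64% of genes were called lower. Cd47, the partner of Sirpa, had 13.4 and 12.6 FPKM with 1,5-AG and 15.3 and 13.7 FPKM in control (-0.14, limma adjusted p = 0.361). The level of Sirpa relative to Cd47 in the same cells was 6.80 and 7.42 with 1,5-AG and 8.21 and 9.09 in control. Sema4d, which encodes the CD72 partner CD100, had 20.3 and 20.6 FPKM with 1,5-AG and 24.2 and 23.7 FPKM in control (-0.22, limma adjusted p = 0.0911). B2m, the shared chain of the MHC class I molecules that Pirb binds, was the most abundant at 529.6 and 560.7 FPKM with 1,5-AG, against 603.6 and 605.1 FPKM in control (-0.15, limma adjusted p = 0.153). The median difference of the 6 was -0.15.

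Downstream of the receptors, 1 of 10 phosphatase and adaptor genes fell and 0 rose with limma. Of the 10, 4 had an unadjusted p under 0.05, where 2023 of all 11120 genes tested did. With voom 2 of the 10 were lower, where 4.64% of genes were called lower. The median difference of the 10 was -0.06. The gene that fell was Dok3, an adaptor that restrains signalling from immune receptors, at 17.8 and 18.9 FPKM with 1,5-AG and 24.9 and 24.8 FPKM in control (-0.42, SE 0.05, limma adjusted p = 0.0352). Its adjusted p was 0.120 to 0.150 with 1 library left out. Ptpn6, which encodes the phosphatase SHP-1, had 114.6 and 112.5 FPKM with 1,5-AG and 114.9 and 112.1 FPKM in control, and the 95% interval of its difference ran from -0.09 to 0.09. Inpp5d, which encodes the lipid phosphatase SHIP-1, had 27.8 and 29.5 FPKM with 1,5-AG and 32.1 and 31.7 FPKM in control (-0.15, limma adjusted p = 0.194, voom adjusted p = 0.0340). Dok2, the adaptor that CD200R1 engages, had 37.0 and 33.8 FPKM with 1,5-AG and 32.2 and 30.3 FPKM in control (0.17, limma adjusted p = 0.237). Of 6 tested kinases that act on these tails or next to them, 0 passed in either direction with limma. Of the 6, 2 had an unadjusted p under 0.05, beside the same 2023 of 11120 genes, and 1 was lower with voom, beside the same 4.64%. Btk, the most abundant, had 34.5 and 36.7 FPKM with 1,5-AG and 35.6 and 36.8 FPKM in control (-0.02, limma adjusted p = 0.836).

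**Figure D3:**
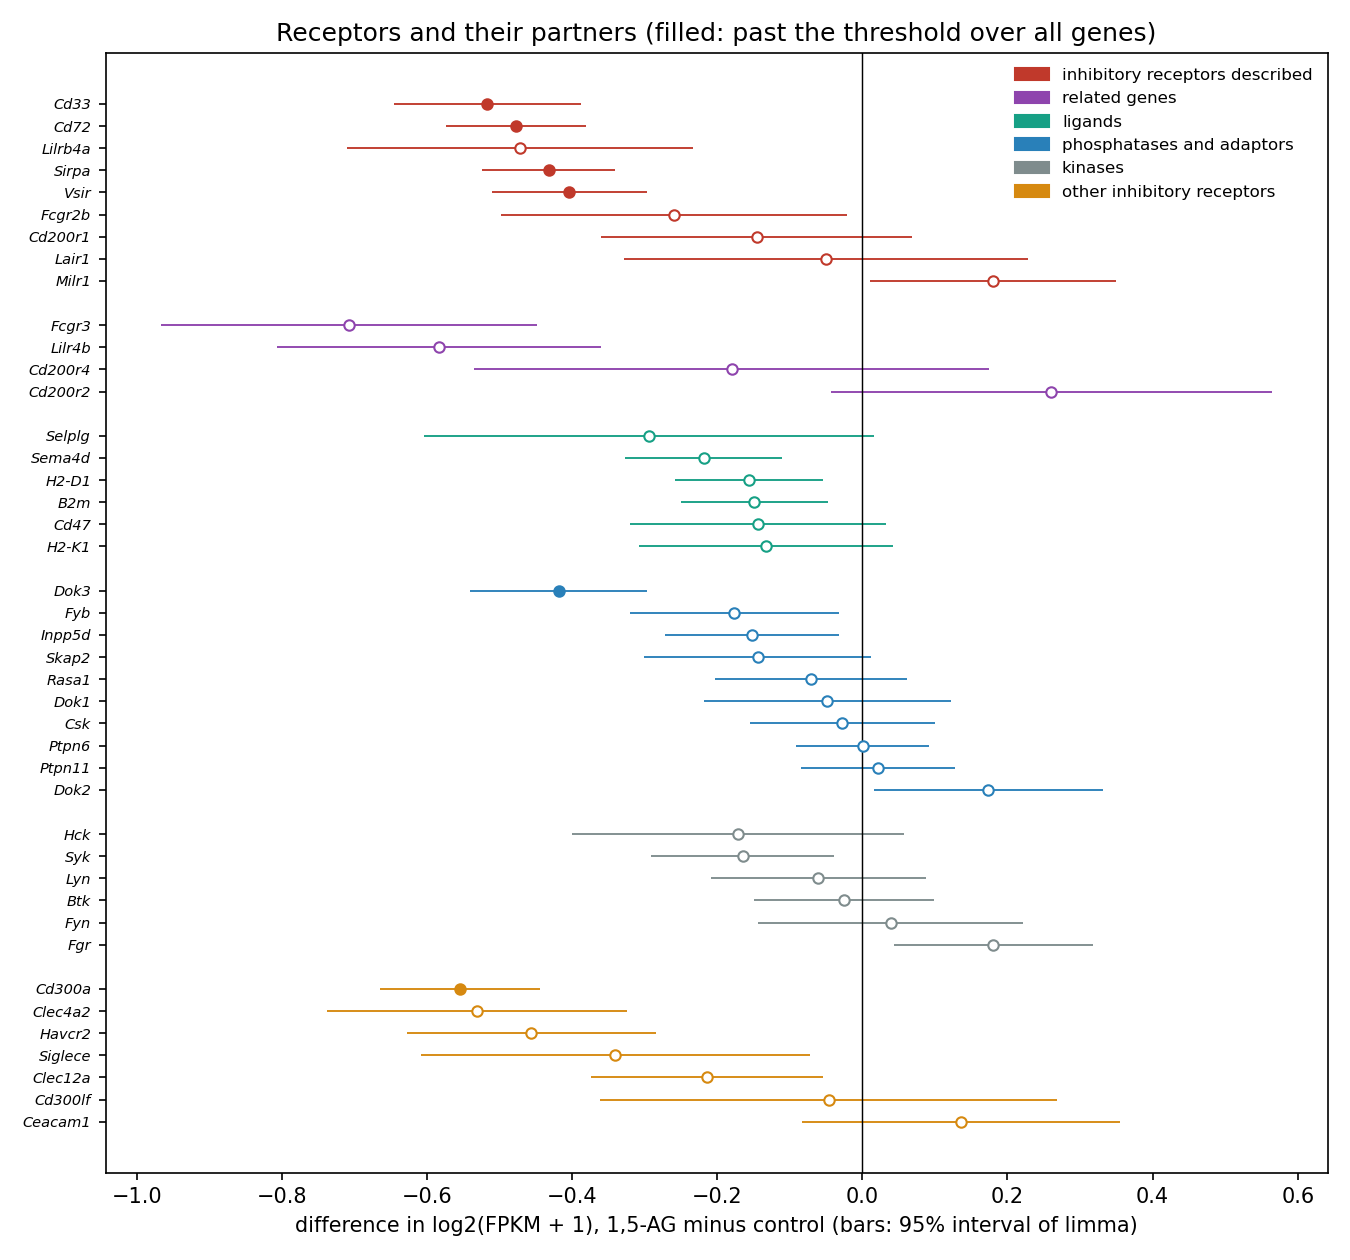
Difference in log2(FPKM + 1), 1,5-AG minus control, with the 95% interval from limma, for the tested receptors, related genes, ligands, phosphatases and adaptors, kinases and other inhibitory receptors, filled where the gene passed the threshold over all genes. The filled points are Sirpa, Cd72, Cd33, Vsir, Dok3 and Cd300a, and all 6 are negative.

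Among inhibitory receptors outside the 10, 1 of 7 tested fell and 0 rose, with a median difference of -0.34. Cd300a, an ITIM receptor for phosphatidylserine and phosphatidylethanolamine, had 14.3 and 14.5 FPKM with 1,5-AG and 21.6 FPKM in each of the control libraries (-0.55, SE 0.04, limma adjusted p = 0.0209). Its adjusted p was 0.0909 to 0.105 with 1 library left out. Clec12a, the most abundant of the 7, had 20.2 and 22.3 FPKM with 1,5-AG and 24.2 and 25.4 FPKM in control (-0.21, limma adjusted p = 0.177). Voom on recovered fragments called 4 of the 7 lower, where 4.64% of genes were called lower. Of the 7, 5 had an unadjusted p under 0.05 with limma, where 2023 of all 11120 genes tested did. Both 1,5-AG libraries lay below both control libraries in 5 and above them in 1, where 25.4% and 24.2% of all genes tested did so.

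The bases before the start of transcription were read for the receptors that have a RefSeq start, 7 of the 10, on the GRCm38.p6 assembly. The motif GAGGAA, the purine-rich core bound by PU.1 and other ETS factors, was searched on both strands in the 250 bases before each start. It occurred in 4 of the 7, Cd72, Cd33, Lair1 and Pirb, where 25.9% of 27025 genes had it in at least 1 such stretch and 23.3% of 32851 stretches held it. Cd72 and Cd33 are shown because they were lower past the threshold and hold a match, in capitals. Vsir, which passed too, has no match in this stretch. Sirpa, Lilrb4a and Cd200r1 are not among the 7 and were not read. Pirb, lower but not tested, held 3 matches, and Lair1, whose groups overlapped, held 1. The Cd72 stretch is chr4:43454627-43454876, minus strand, with the match reading on the opposite strand 47 bases before the start, and the Cd33 stretch is chr7:43533172-43533421, minus strand, with the match 226 bases before the start.
Cd72: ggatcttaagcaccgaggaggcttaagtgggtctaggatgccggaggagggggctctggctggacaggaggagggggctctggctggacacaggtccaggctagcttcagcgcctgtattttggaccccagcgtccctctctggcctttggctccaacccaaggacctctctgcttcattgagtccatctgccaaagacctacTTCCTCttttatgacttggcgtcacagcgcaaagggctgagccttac
Cd33: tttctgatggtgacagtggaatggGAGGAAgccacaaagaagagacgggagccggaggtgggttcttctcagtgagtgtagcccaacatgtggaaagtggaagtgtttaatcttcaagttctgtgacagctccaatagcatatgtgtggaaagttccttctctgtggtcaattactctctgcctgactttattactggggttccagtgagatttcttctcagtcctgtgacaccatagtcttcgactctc
Spi1, the gene of PU.1, had 103.8 and 95.5 FPKM with 1,5-AG and 120.5 and 103.5 FPKM in control, with overlapping groups (-0.16, limma adjusted p = 0.395). Its difference was -0.27 to -0.05 with 1 library left out, the lower bound without control replicate 2 and the upper without control replicate 1. A match is a run of letters and not a shown binding site.

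Macrophage markers were abundant, with Cd68 at 471.8 and 479.0 FPKM with 1,5-AG and 499.6 and 497.9 FPKM in control, and Csf1r at 237.2 and 240.4 FPKM with 1,5-AG and 258.1 and 258.4 FPKM in control. Neither passed (limma adjusted p = 0.329 and 0.169), nor did Adgre1 (-0.32, limma adjusted p = 0.139), while Lyz2 fell by 0.56 (limma adjusted p = 0.0169). Lyz2 did not pass without the variance trend (limma adjusted p = 0.0832) or without a filter on low values (limma adjusted p = 0.288). Its difference lay between -0.58 and -0.54 with 1 library left out. With voom 3 of the 5 macrophage markers were lower, Csf1r (adjusted p = 0.0211) and Adgre1 (adjusted p = 0.00593) among them, where 4.64% of genes were called lower. Both 1,5-AG libraries lay below both control libraries in 4 of the 5, where 25.4% of all genes tested did so. The part of these shifts in the receptors' differences was not tested. Of the markers of T and NK cells, neutrophils, dendritic cells and fibroblasts, Lck alone reached the level for testing, at 1.21 and 1.29 FPKM with 1,5-AG and 1.37 and 1.18 FPKM in control. The sums that follow hold 2 of 5 neutrophil, 4 of 5 dendritic cell and 2 of 5 fibroblast markers, and 1 of 5 T and NK cell markers was analysed. The neutrophil markers summed to 0.353 to 0.394 FPKM with 1,5-AG and 0.486 to 0.517 FPKM in control, and the dendritic cell markers to 0.144 to 0.224 FPKM with 1,5-AG and 0.149 to 0.229 FPKM in control. The fibroblast markers summed to 0 FPKM with 1,5-AG and at most 0.0254 FPKM in control. In bulk RNA, fewer cells that express a receptor and less of its RNA per cell cannot be told apart.

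**Figure D4:**
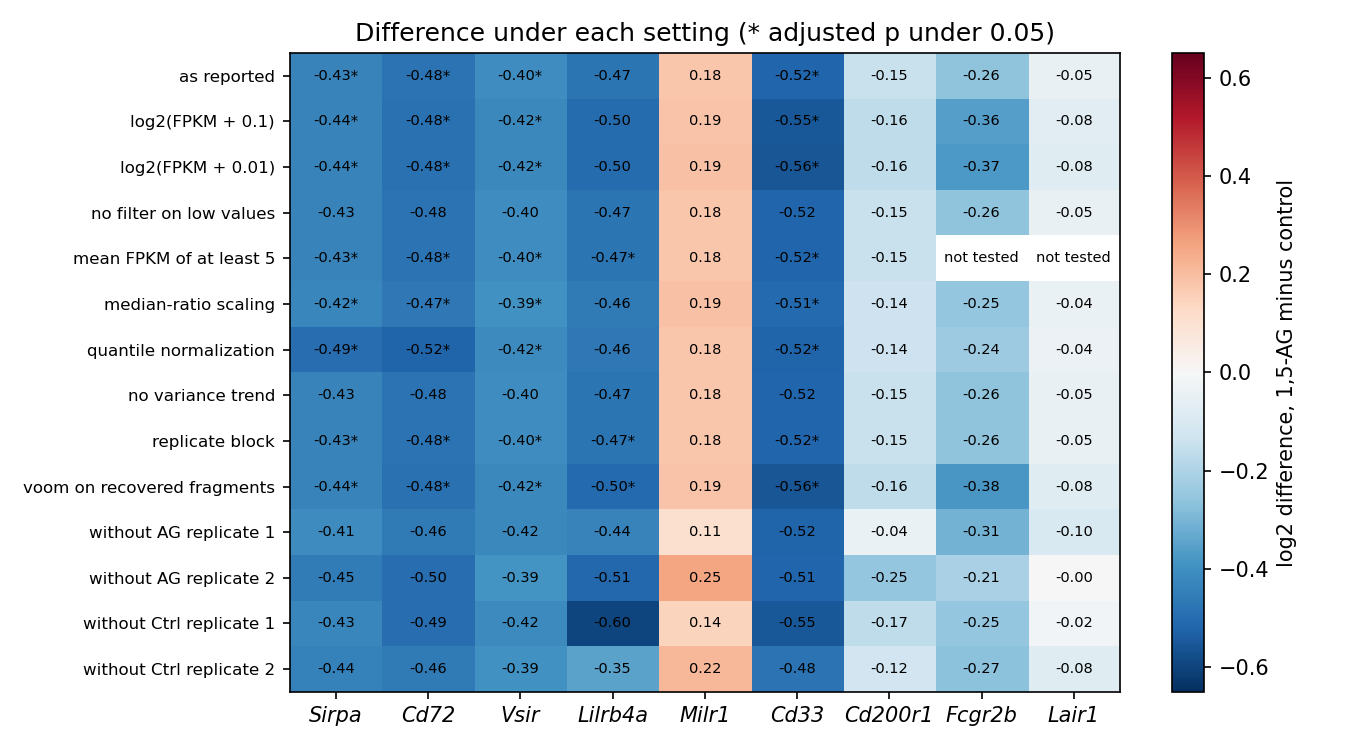
Difference in log2 units, 1,5-AG minus control, of the 9 tested receptors (columns) under each way of processing (rows), with a star where the adjusted p was under 0.05. In every row Milr1 is positive and the other receptors tested there are negative. Fcgr2b and Lair1 were not tested at a mean of at least 5 FPKM. The stars vanish without a filter, without the variance trend and with any library left out.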

How the data were processed

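The authors deposited FPKM values, 1 column per library, for 21523 Ensembl genes. The tools listed in the submitters' processing notes are Trimmomatic, HISAT2, Cufflinks and HTSeq, and the build is mm10; versions, roles and strand setting were not given in those notes. Symbols and exon lengths came from GENCODE release M21, matched for 21508 identifiers. FPKM multiplied by exon length was divided by the size of 1 fragment, estimated in each library from the values themselves. This gave whole fragments, within 0.02, in all libraries for 99.4% of matched genes. Depths inferred from that size were 14616556 and 15112965 fragments with 1,5-AG and 15163807 and 16228673 in control. At these depths 3 fragments in 2 kb of exon are 0.0924 to 0.103 FPKM, which covers counting error only.

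Log2(FPKM + 1) values of the groups were compared by limma 3.58.1 (R 4.3.3) with a variance trend, in genes whose mean over the libraries reached 1 FPKM, two-sided, with Benjamini-Hochberg adjustment over all 11120. The scale understates changes of weakly expressed genes. An exact permutation test of 2 against 2 libraries cannot go below p = 0.333, so single-gene calls rest on variance pooled across genes. The fit was tested on simulated data. The receptors and gene lists were chosen with earlier results of these data known. Besides the 10 receptors, the text names list members past the threshold (up to 4), the most abundant tested member of each list, and Cd47, Ptpn6, Inpp5d, Fcgr3, Fcer1g, Tyrobp, Spi1, Csf1r, Adgre1 and Cd68. Genes outside this rule, such as Sema4d, Dok2, Fcgr1, Tesk1, Trem2 and Irf8, were named after their values were seen. A gene of the lists is not reported here. Alternatives changed the pseudocount, filter, scaling, variance model, replicate block, count model and libraries used.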

Additional observations from a re-analysis of the deposited data

How the results depend on the processing

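The number of receptors past the threshold, 4, was 0 without a filter on low values and 0 without the variance trend, and 0 with 1 library left out, whichever it was, with 5 to 7 receptors at an unadjusted p under 0.05 in those fits, as were 12.2% to 16.7% of all genes in them. It was 4 with pseudocounts of 0.1 and 0.01, with both other scalings and with Lilrb4a and Lilr4b summed, an alternative chosen after seeing the data, and 5, with Lilrb4a added, in the other refits. Over all genes, 162 passed, and 0 without a filter (2628 at unadjusted p under 0.05), 360 at a mean of at least 5 FPKM, 5 without the variance trend, 915 with voom on recovered fragments and 2 to 10 with 1 library left out. The cause was not tested beyond the fewer genes or libraries that some settings impose; a lone library is assumed to vary like the other group. No receptor changed sign. Of the other named genes, 3 with a difference near 0 changed sign. Ptpn6 was -0.034 under quantile normalization and -0.017 to 0.019 with 1 library left out, Btk was -0.067 to 0.017 with 1 left out, and Lck was 0.014 under quantile normalization and -0.076 to 0.047 with 1 left out. Deviations of same-numbered libraries correlated at 0.0124 over the genes tested. This cannot decide whether libraries of the same number were handled together, since single genes may still share a shift. The replicate block gave 310 genes and 5 receptors, beside 162 and 4 without it.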

Other observations

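Activating receptors and adaptors of myeloid cells had 0 of 10 tested members past the threshold in either direction with limma. Of the 10, 4 had an unadjusted p under 0.05, where 2023 of all 11120 genes tested did. Voom on recovered fragments called 2 lower, where 4.64% of genes were called lower. The median difference of the 10 was -0.11. Tyrobp, the adaptor DAP12, had 355.0 and 361.3 FPKM with 1,5-AG and 402.8 and 408.1 FPKM in control (-0.18, limma adjusted p = 0.0812). Fcer1g, the common chain of activating Fc receptors, had 131.7 and 131.4 FPKM with 1,5-AG and 139.8 and 146.1 FPKM in control (-0.12, limma adjusted p = 0.204). Trem2, a receptor for lipids, had 5.82 and 4.86 FPKM with 1,5-AG and 12.2 and 5.63 FPKM in control, so that control replicate 1 stood apart from the 3 other libraries.

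Of 7 tested transcription factors of the myeloid lineage, Runx1 fell, at 4.46 and 4.69 FPKM with 1,5-AG and 6.67 and 6.82 FPKM in control (-0.47, SE 0.06, limma adjusted p = 0.0441), and 0 rose with limma. The adjusted p of Runx1 was 0.147 to 0.175 with 1 library left out. Voom on recovered fragments called 2 of the 7 higher and 1 lower, where 3.64% and 4.64% of genes were so called. The median difference of the 7 was 0.05. Both 1,5-AG libraries lay above both control libraries in 3 of the 7 and below them in 1, where 24.2% and 25.4% of all genes tested did so. Irf8 had 12.2 and 11.7 FPKM with 1,5-AG and 10.4 and 9.59 FPKM in control (0.23, limma adjusted p = 0.142, voom adjusted p = 0.0119).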
